A study of Mus musculus with 3 samples.

Results

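The epidermis of mice that lack TNF in all cells and cFLIP in keratinocytes (cFLIP KO/TNF KO) was compared with the epidermis of mice that lack TNF alone (TNF KO). Every gene with a symbol on the array was a member of the comparison, which gave 24011 of 24011 genes, measured on 2 of the 3 arrays of the series. TNF KO mice were TNF-/- in the whole body. The cFLIP KO/TNF KO mice were TNF-/- as well and carried cFLIP fl/fl with K14CreER-tam, a Cre recombinase that the keratin 14 promoter drives in keratinocytes and that tamoxifen activates. TNF deficiency was thus shared by both groups, and the comparison asks what loss of cFLIP does to epidermal transcripts in the absence of TNF. The remaining array held epidermis of cFLIP KO mice (cFLIP fl/fl, K14CreER-tam, with TNF), and its values are given beside the others where they add to a result. Back skin was epilated and painted with tamoxifen, on 3 days per the labels, and RNA was taken 72 h after the first application. The epidermis was parted from the dermis by heat after storage in RNAlater, and the RNA of 4 animals per group was pooled per the labels, while the study's methods give a range for both numbers. Ages and sexes are not given in the sources used here. Cre is not named for the TNF KO mice, so an effect of activated Cre cannot be told apart from loss of cFLIP.

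Each genotype was measured on 1 array of pooled RNA, so there was no replicate error and no test was possible. "Higher" and "lower" describe these arrays only. Values are log2 signals, and a difference is the log2 signal of cFLIP KO/TNF KO minus that of TNF KO, so that a difference of 1 is 2-fold. In bulk tissue, fewer cells of a type and less RNA per cell cannot be told apart.

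The protein cFLIP resembles caspase-8 but lacks its protease activity, and it restrains caspase-8 in the complexes that form below death receptors. TNF is one of the ligands that start such complexes, alongside FAS ligand and TRAIL. Type I interferons induce antiviral genes, many of which carry the interferon-stimulated response element in their promoters. The outer epidermis consists of keratinocytes that cornify, with an envelope of cross-linked proteins around each cell and lipids between the cells.

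The promoters of 3 genes are shown, those of the gene with the highest difference (Il19) and a pair of interferon-response genes (Ifit1 and Isg15). The pair was picked after the differences were seen. They are RefSeq sequences of GRCm38.p6 from 250 bases before to 50 after the gene's start, 5′ to 3′ on the gene's strand. Capitals mark matches, on either strand, to the core of the interferon-stimulated response element (GAAANNGAAA) and to the motifs TTCNNNGAA, bound by STAT factors, TGANTCA, bound by AP-1, and GGANTTTCC, bound by NF-kB. Il19 lies on the minus strand at chr1:130940066-130940365, Ifit1 on the plus strand at chr19:34640639-34640938 and Isg15 on the minus strand at chr4:156200769-156201068.
Il19: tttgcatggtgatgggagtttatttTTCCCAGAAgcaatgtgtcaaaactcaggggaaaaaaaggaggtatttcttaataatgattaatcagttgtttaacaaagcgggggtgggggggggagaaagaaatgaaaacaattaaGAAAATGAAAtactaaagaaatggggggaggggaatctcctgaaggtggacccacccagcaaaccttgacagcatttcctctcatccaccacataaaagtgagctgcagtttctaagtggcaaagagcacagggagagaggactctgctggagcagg
Ifit1: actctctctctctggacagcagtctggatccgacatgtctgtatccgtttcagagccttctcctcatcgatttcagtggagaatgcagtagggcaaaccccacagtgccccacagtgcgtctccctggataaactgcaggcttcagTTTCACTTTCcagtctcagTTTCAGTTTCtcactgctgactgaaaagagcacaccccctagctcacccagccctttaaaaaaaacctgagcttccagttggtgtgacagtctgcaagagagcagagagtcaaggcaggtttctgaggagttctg
Isg15: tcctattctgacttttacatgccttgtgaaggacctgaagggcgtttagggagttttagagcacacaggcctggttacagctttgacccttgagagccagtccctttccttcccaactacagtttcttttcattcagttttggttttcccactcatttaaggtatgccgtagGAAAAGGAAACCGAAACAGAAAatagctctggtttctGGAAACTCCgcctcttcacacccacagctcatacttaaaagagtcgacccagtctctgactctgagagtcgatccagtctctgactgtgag
The Ifit1 window holds 2 matches to the element's core and the Isg15 window 3 that overlap each other, while the Il19 window holds 1. Isg15 also has 1 match to the NF-kB motif and Il19 has 1 to the STAT motif. Not every gene of the interferon list has the core, and the windows of Oasl2, Xaf1 and Irf7 hold no match to it. The window of Ifit3, whose difference was -0.03, holds 2 matches.

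Most genes had the same or nearly the same signal on both arrays. Of the 24011 genes, 12618 (52.6%) were listed at exactly equal values and 18933 (78.9%) lay within 0.1 of each other. An equal value after the authors' normalization was not read as evidence that a gene stayed the same. Of the other 11393 genes, 5523 were higher and 5870 lower in cFLIP KO/TNF KO. The SD of the difference over genes was 0.22, against 0.68 for cFLIP KO minus TNF KO.

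The double-deficient epidermis had 151 genes that were at least 2-fold higher than in TNF KO (0.629% of all) and 54 at least 2-fold lower (0.225%). That makes 205 in all (0.854%). At this share, a short gene list can have no member past 2-fold without standing out from other genes. Differences of 4-fold or more were found for 27 higher and 8 lower genes, and the differences ran from -4.35 for Spink7 to 4.22 for Il19. Genes that encode proteins, with olfactory and vomeronasal receptors left out, made up 139 of the 151 higher and 50 of the 54 lower genes. The median log2 signal of the higher genes was 5.55 in TNF KO against 7.16 in cFLIP KO/TNF KO, while all genes had a median of 4.13. Just past 2-fold lay Ccl4 (1.01) and C1qb (1.002) on the higher side, and just short of it H2-T22 (0.997) and Lcp1 (0.99). On the lower side Slc5a1 (-1.01) and Vsig10l (-1.0) were just past 2-fold, and Krt33a and Krtap15 (-0.998 each) just short of it.

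The 2 arrays were used as the authors normalized them, and 1 other scaling changed this balance. Actb, the gene of beta-actin, stood at 11.87 in TNF KO against 12.39 in cFLIP KO/TNF KO, so that scaling by Actb lowers every difference by 0.52 and leaves only genes with a difference of at least 1.52 past 2-fold on the higher side. Under it, 61 genes were higher by 2-fold or more and 440 lower, and the share of higher genes among all of these moved from 73.7% to 12.2%. That share stayed between 74.4% and 75.5% under the 4 other scalings, and the mean difference of 6 reference genes (Hprt, Tbp, Ywhaz, Sdha, Rplp0 and Pgk1) was -0.01. The 25 highest and the 25 lowest genes named here kept their direction and stayed past 2-fold under all 5 scalings. They were picked for large differences, of 2.08 or above and of -1.32 or below. That they stayed past 2-fold was thus largely given in advance.

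**Figure D1:**
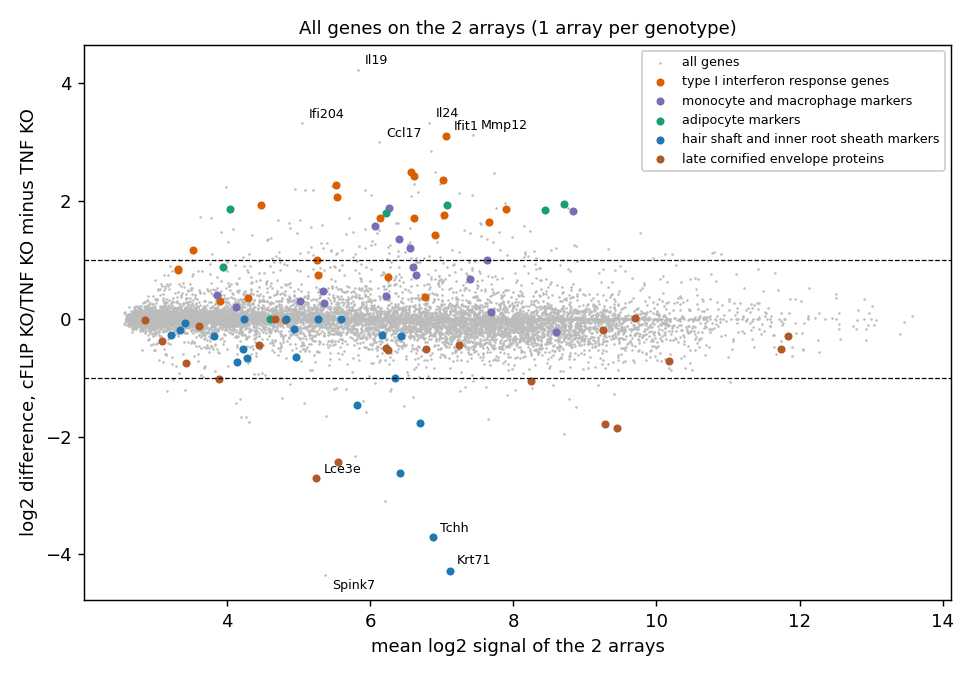
Difference in log2 signal between cFLIP KO/TNF KO and TNF KO epidermis for all 24011 genes (y axis) against the mean log2 signal of both arrays (x axis), 1 array per genotype. Dashed lines mark 2-fold, and coloured points are the members of 5 gene lists; the adipocyte, interferon-response and macrophage genes lie mostly above 0, and the hair follicle and late envelope genes mostly below.

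The log2 signal of Cflar, which encodes cFLIP, was 7.0 in TNF KO against 6.53 in cFLIP KO/TNF KO and 6.29 in cFLIP KO. It was lower on both arrays with Cre, by 0.47 in cFLIP KO/TNF KO, which is short of 2-fold. The sources used here do not place its probes relative to the floxed exons, which makes the value a weak check of the label. Of the 30 genes on either side of Cflar, the median difference was 0 and 1 was past 2-fold, Aox4 with -1.21. The label of the tissue was met by bright keratinocyte genes, with Krt14 listed at 13.00 on both arrays, Krt10 at 13.48 and 13.43, and Lor at 12.01 and 11.72. Xist, which marks female cells, was 8.58 in TNF KO against 8.98 in cFLIP KO/TNF KO and 4.62 in cFLIP KO. The Y-linked genes Eif2s3y (6.73 in TNF KO against 5.14 in cFLIP KO/TNF KO), Kdm5d (4.05 and 3.62) and Uty (5.74 and 5.37) were lower in cFLIP KO/TNF KO. The part of the pools' sex makeup in the results was not tested.

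Genes that interferons induce were higher in cFLIP KO/TNF KO than in TNF KO epidermis. Of 23 type I interferon response genes measured, 22 were above 0, 14 were at least 2-fold higher and none was 2-fold lower, with a median difference of 1.65 beside 0 for all genes. Under scaling by Actb, 12 were at least 2-fold higher.
Ifit1, which binds foreign RNA, stood at 5.51 in TNF KO against 8.62 in cFLIP KO/TNF KO, a difference of 3.11 and the highest of the list. Usp18, which removes the modifier ISG15 from proteins and restrains the interferon receptor, went from 5.33 in TNF KO to 7.82 in cFLIP KO/TNF KO. Rsad2, the gene of the antiviral enzyme viperin, was 5.84 in TNF KO against 8.20 in cFLIP KO/TNF KO. All 3 were above the median signal of all genes already in TNF KO. Oas2 (difference 2.27), Oasl2 (2.42), Oas1g (1.93) and Oas1a (1.17) belong to the oligoadenylate synthetases, which sense double-stranded RNA, and Oas3 was short of 2-fold at 0.70. The cytosolic RNA sensors were higher too, with Ifih1, the gene of MDA5, at 6.96 in TNF KO against 8.83 in cFLIP KO/TNF KO and Ddx58, the gene of RIG-I, at 6.20 and 7.61. Of the signalling components, Stat2 (1.71) and the transcription factor gene Irf7 (1.65) were at least 2-fold higher, and Irf9 was at 0.37. Isg15 itself was 5.29 in TNF KO against 6.99 in cFLIP KO/TNF KO, Bst2, the gene of the viral tether tetherin, differed by 1.77 and Xaf1 by 2.07. Not all members moved alike. Mx1 (0.85), Mx2 (0.83) and Cmpk2 (0.75) were short of 2-fold, and Ifit2 was at 0.31 and Ifit3 at -0.03. Of the 23 genes, 4 were dim on both arrays, among them Mx1, Mx2 and Oas1a. Oas1a, at 2.95 in TNF KO against 4.11 in cFLIP KO/TNF KO, is among the 14 counted as at least 2-fold higher.
In cFLIP KO epidermis the same list had a median difference from TNF KO of 0.64 with 6 members at least 2-fold higher. Both comparisons use the 1 TNF KO array. Side by side, Ifit1 differed from TNF KO by 3.11 in cFLIP KO/TNF KO and 1.75 in cFLIP KO, Usp18 by 2.48 and 0.82, Xaf1 by 2.07 and 0.21, and Rsad2 by 2.36 and 2.47. Ifit3 went the other way, with -0.03 in cFLIP KO/TNF KO and 1.06 in cFLIP KO. Whether the genotypes differ in this list was not tested.

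**Figure D2:**
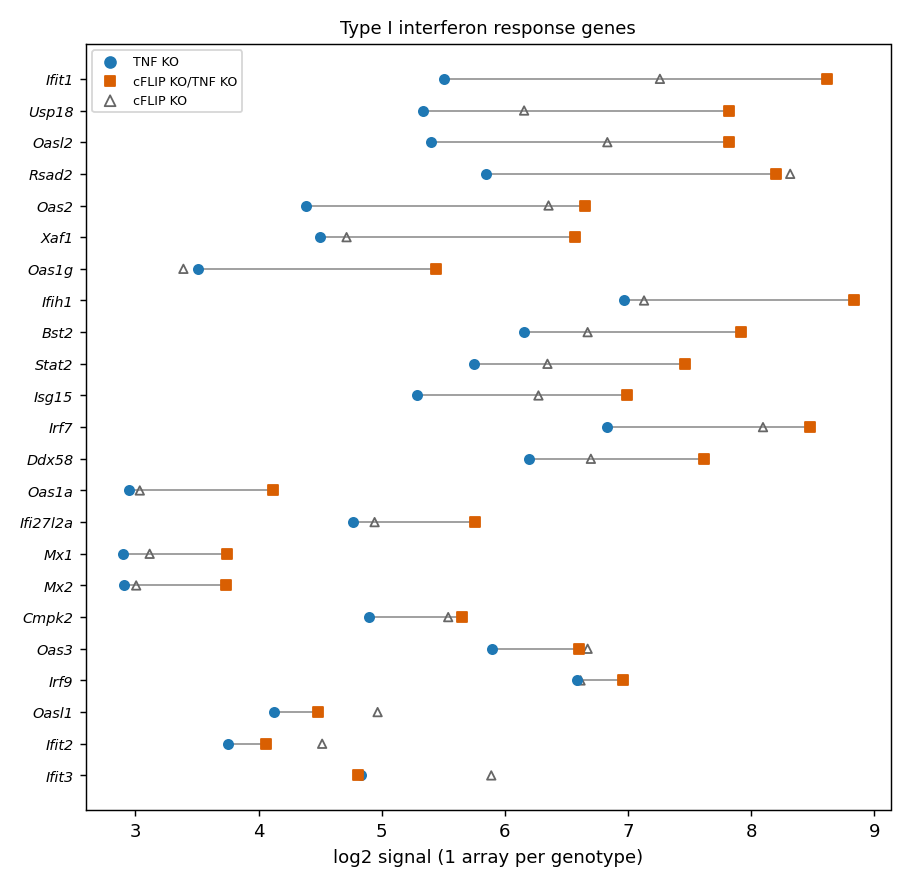
Log2 signal (x axis) of the 23 type I interferon response genes in TNF KO (circles), cFLIP KO/TNF KO (squares) and cFLIP KO epidermis (triangles), 1 array per genotype, ordered by the difference between the first and second of these. Ifit1 runs from 5.51 to 8.62, and Ifit3 is the only member whose square lies left of its circle.

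Other families that interferons induce were higher as well. Of 18 interferon-gamma inducible genes, 6 were at least 2-fold higher and none lower, with a median of 0.62. They were genes of GTPases that act on intracellular pathogens, Gbp2 (5.47 in TNF KO against 7.76 in cFLIP KO/TNF KO), Irgm1 (4.34 and 6.59), Igtp (3.85 and 6.05), Irgm2 (difference 1.35), Iigp1 (1.29) and Gbp7 (1.11). Under scaling by Actb, 3 of the 6 remained past 2-fold.
All 15 genes of MHC class I antigen presentation were above 0, with a median of 0.70 (0.18 under scaling by Actb), and 3 were at least 2-fold higher. These were Tapbp, the gene of tapasin (8.0 in TNF KO against 9.20 in cFLIP KO/TNF KO), H2-Q7 (1.16) and the immunoproteasome subunit gene Psmb8 (1.08). Under scaling by Actb none of these 3 was past 2-fold. H2-Q7 was 6.57 in TNF KO against 7.73 in cFLIP KO/TNF KO and 3.82 in cFLIP KO. The median of this list in cFLIP KO was -0.10, with Tap1, the peptide transporter gene, at 7.95 in TNF KO against 8.80 in cFLIP KO/TNF KO and 7.65 in cFLIP KO. Psmb8 was the single proteasome subunit gene of 37 that was past 2-fold in either direction.
The Schlafen genes Slfn2 (1.89), Slfn8 (1.44) and Slfn4 (1.39) were at least 2-fold higher among 7 measured, with a list median of 0.58, and Slfn2 alone was under scaling by Actb. Ifi204, of a family of interferon-inducible proteins that bind DNA, had the third highest difference of the genes named by rank, at 3.39 in TNF KO against 6.71 in cFLIP KO/TNF KO and 4.94 in cFLIP KO. Its relatives Ifi211 (2.08), Ifi209 (1.72), Ifi207 (1.68) and Ifi205 (1.45), of which all but Ifi211 were picked after their values were seen, were at least 2-fold higher too. Zbp1, a sensor of nucleic acids in the Z form that can activate RIPK3, was 4.83 in TNF KO against 7.03 in cFLIP KO/TNF KO. It was the only one of 29 genes of the cell death machinery that was past 2-fold. Mlkl, the effector of necroptosis, was at 0.93 and Casp4, a caspase of pyroptosis, at 0.81, while Ripk3 was listed at 5.50 and Fadd at 5.19 on both arrays.

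Among cytokine and chemokine genes were those with the highest differences of the genes named by rank. Il19 and Il24, cytokines of the interleukin-10 family that act on keratinocytes, lie close to each other on chromosome 1 and headed that order. Il19 stood at 3.72 in TNF KO against 7.94 in cFLIP KO/TNF KO and 7.09 in cFLIP KO. Il24 was 5.15 in TNF KO against 8.48 in cFLIP KO/TNF KO and 9.09 in cFLIP KO. They were the only members past 2-fold of 11 cytokines and receptors of their subfamily, whose median was 0. Il20 was listed at 3.30 on both arrays, and the receptor chain genes Il20rb (-0.37), Il22ra1 (-0.33) and Il20ra (-0.19) were slightly lower.
Among 15 attractants of monocytes and eosinophils, 7 were past 2-fold on the higher side and none on the lower, with a median of 0.80, and 3 were past it under scaling by Actb. Ccl24, a ligand of the eosinophil receptor CCR3, was 5.43 in TNF KO against 8.28 in cFLIP KO/TNF KO. Ccl7, a ligand of the monocyte receptor CCR2, was 6.17 in TNF KO against 8.31 in cFLIP KO/TNF KO. The other 5 were Ccl9 (1.57), Ccl6 (1.5), Ccl8 (1.11), Ccl2 (1.06) and Ccl4 (1.01), and Ccl11, another CCR3 ligand, was listed at 5.10 on both arrays.
Of 13 chemokines that attract T cells, 3 were at least 2-fold higher and 6 were listed at equal values, so that the median was 0. Ccl17, a ligand of CCR4, was 4.63 in TNF KO against 7.62 in cFLIP KO/TNF KO and 6.69 in cFLIP KO. The others were the CXCR3 ligand genes Cxcl10 (4.96 in TNF KO against 7.05 in cFLIP KO/TNF KO) and Cxcl9 (1.34), both induced by interferons, of which Cxcl9 was short of 2-fold under scaling by Actb, while Cxcl11, the remaining CXCR3 ligand, was at -0.04.
Among 12 factors that attract neutrophils, Cxcl3 (1.09) alone was past 2-fold, and S100a9 was at 0.85, S100a8 at 0.49 and Cxcl2 at 0.16. The median was 0.02 as deposited and turned to -0.51 under scaling by Actb. Of the 12, 7 were dim on both arrays and 6 were listed at equal values, and the median without dim genes was 0.49. Lcn2, the gene of the iron-scavenging protein lipocalin-2, was 5.37 in TNF KO against 6.69 in cFLIP KO/TNF KO, and it was the only one of 21 antimicrobial proteins and alarmins past 2-fold as deposited. Under scaling by Actb, Lcn2 was at 0.80 and Cxcl3 at 0.57, both short of 2-fold.
In the interleukin-1 family, 2 of 16 genes were at least 2-fold lower and none higher. They were Il1f6, now Il36a (10.05 in TNF KO against 8.76 in cFLIP KO/TNF KO and 6.72 in cFLIP KO), and Il1f8, now Il36b (9.75, 8.63 and 5.36 in the same order). Both encode interleukin-36 cytokines of keratinocytes. Il1b was higher by 0.73, and Il18 was lower by 0.61, both short of 2-fold. Of the EGF receptor ligands, Hbegf was higher (7.59 in TNF KO against 8.73 in cFLIP KO/TNF KO) and Ereg lower (9.62 and 8.12), and under scaling by Actb Hbegf was at 0.61 and Tnfrsf1b, named next, at 0.64. Of 20 genes of the TNF superfamily, Tnfrsf1b, the gene of TNF receptor 2, was past 2-fold with 1.16 as deposited. Tnf was 5.11 in TNF KO against 5.21 in cFLIP KO/TNF KO and 5.79 in cFLIP KO, which has TNF. The Tnf signal was above the median of all genes on both TNF-/- arrays, which makes it a weak check of that label.

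**Figure D3:**
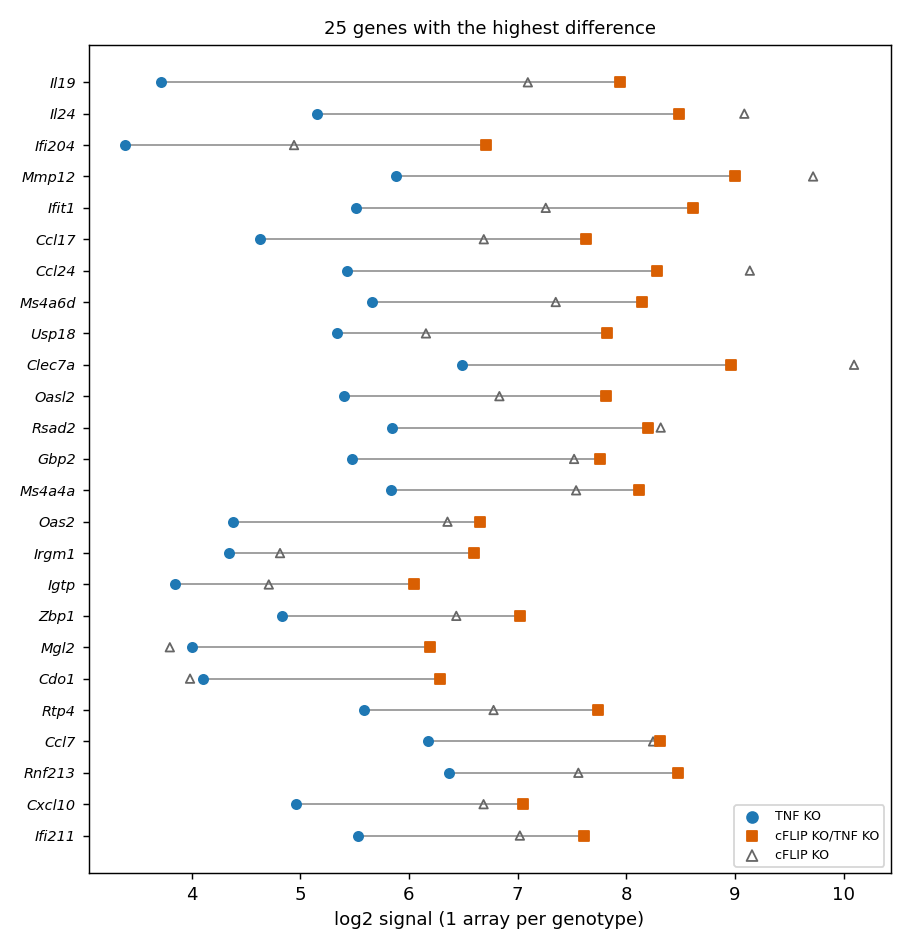
Log2 signal (x axis) of the 25 genes with the highest difference in TNF KO (circles), cFLIP KO/TNF KO (squares) and cFLIP KO epidermis (triangles), 1 array per genotype. Mgl2 and Cdo1 are the genes whose cFLIP KO value lies left of TNF KO, by 0.21 and 0.12.

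Most macrophage markers and some other genes of myeloid cells were higher in the double-deficient epidermis. Of 17 monocyte and macrophage markers, 16 were above 0 and 6 at least 2-fold higher, with a median of 0.68 and a summed linear signal 1.78 times that of TNF KO. Under scaling by Actb the median was 0.16 with 3 markers past 2-fold. Mrc1, the gene of the mannose receptor CD206, was 7.93 in TNF KO against 9.75 in cFLIP KO/TNF KO. Ly6c2, a marker of inflammatory monocytes, was 5.32 in TNF KO against 7.20 in cFLIP KO/TNF KO. The Fc receptor genes Fcgr1 (1.57) and Fcgr3 (1.36) and the complement genes C1qc (1.20) and C1qb (1.00) completed the 6, and Adgre1, a gene of mature macrophages, was at 0.75 and Csf1r, the receptor of a macrophage growth factor, at 0.12. The only marker below 0 was Cd14, with 8.71 in TNF KO against 8.49 in cFLIP KO/TNF KO and 11.58 in cFLIP KO.
All 12 genes of alternative macrophage activation were above 0 and 5 were at least 2-fold higher, with a median of 0.38 that turned to -0.14 under scaling by Actb. Mgl2, a C-type lectin gene of macrophages and dermal dendritic cells, was 4.00 in TNF KO against 6.19 in cFLIP KO/TNF KO and 3.80 in cFLIP KO. Besides Mrc1, the others were Arg1 (1.61), Chil3 (1.53) and Pdcd1lg2 (1.02). Clec7a, the gene of the fungal receptor dectin-1, was 6.49 in TNF KO against 8.96 in cFLIP KO/TNF KO, and 3 of 13 myeloid C-type lectin genes and adaptors were past 2-fold. The median of these 13 was 0.02, and 6 of them were dim on both arrays. Under scaling by Actb the median was -0.51 and 1 was past 2-fold on the higher side. Of 10 genes of leukocyte integrins and endothelial adhesion none was past 2-fold, with a median of 0.02.
Of 19 matrix metalloproteinases and their inhibitors, 4 were at least 2-fold higher, with a median of 0.20 that turned to -0.33 under scaling by Actb. Mmp12, the macrophage metalloelastase, was 5.88 in TNF KO against 9.0 in cFLIP KO/TNF KO, and Mmp13 (1.89), Mmp9 (1.35) and Mmp3 (1.07) followed. Of 12 complement genes, 3 were past 2-fold, the third besides C1qb and C1qc being Serping1 (1.13), the gene of the C1 inhibitor, and the median of 0.43 turned to -0.093 under scaling by Actb. Of 13 genes of MHC class II and Langerhans cells, none was past 2-fold, H2-Ab1 was at 0.92 and Cd74 at 0.76, and the median of 0.22 turned to -0.30 under scaling by Actb.
Lists of other leukocyte markers had medians near 0 as deposited. Of 17 neutrophil markers only Mmp9, which macrophages also make, was past 2-fold, with a list median of 0.05 that turned to -0.47 under scaling by Actb, and Ly6g was listed at 2.79 on both arrays. None of 15 T cell markers, 9 markers of dendritic epidermal T cells, 9 of B and NK cells, 6 of eosinophils or 11 of mast cells and basophils was past 2-fold, with medians of 0 as deposited. Trgv5, a receptor gene of dendritic epidermal T cells, was the furthest from 0 of its list, at 6.65 in TNF KO against 5.88 in cFLIP KO/TNF KO and 4.27 in cFLIP KO. Dim on both arrays were 8 of the 17 neutrophil markers, Ly6g among them, 8 of the 15 T cell and 8 of the 9 B and NK cell markers. So were 7 of the 11 mast cell and basophil and all 6 eosinophil markers, which limits what these lists can show.

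Markers of cells that lie below the epidermis also differed between the arrays. Of 7 adipocyte markers, 5 were past 2-fold on the higher side, with a median of 1.84 and a summed linear signal 3.57 times that of TNF KO. Car3 was 7.73 in TNF KO against 9.68 in cFLIP KO/TNF KO and 6.36 in cFLIP KO. Fabp4, a fatty acid binding protein, was 7.53, 9.37 and 5.75 in the same order, and Adipoq, the gene of adiponectin, was 3.12, 4.98 and 3.10. Retn (1.94) and Cidec (1.79) completed the 5, Lep was at 0.88, and Plin1, a coat protein of the lipid droplet, was listed at 4.60 on both arrays. The median of this list in cFLIP KO was -0.02, and the 5 genes stayed past 2-fold under scaling by Actb. Cdo1 (4.11 in TNF KO against 6.29 in cFLIP KO/TNF KO and 3.99 in cFLIP KO), a cysteine dioxygenase that adipocytes and liver use, and Lpl (1.62), Pck1 (1.56) and Thrsp (1.42), genes of lipid storage and synthesis of which these 3 were picked after their values were seen, were higher as well.
Fibroblast markers were higher by less. Of 13, 12 were above 0 and 1 was past 2-fold, Vim with 1.10, and the median of 0.30 turned to -0.22 under scaling by Actb. Lum was at 0.89, Dpt at 0.85, Dcn at 0.63, Col3a1 at 0.34 and Col1a1 at 0.14. Of 11 sebaceous gland markers, 8 were above 0 and none past 2-fold, with a median of 0.50 that turned to -0.020 under scaling by Actb, and of 11 skeletal muscle markers Myh1 (1.53) was past 2-fold, with a median of 0.17 that turned to -0.35. Endothelial and red blood cell markers had medians of 0, with none past 2-fold. The macrophage, MHC class II and alternative activation genes above can be expressed in dermis as well as epidermis. The part of dermal and subcutaneous tissue in those results was not tested.

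**Figure D4:**
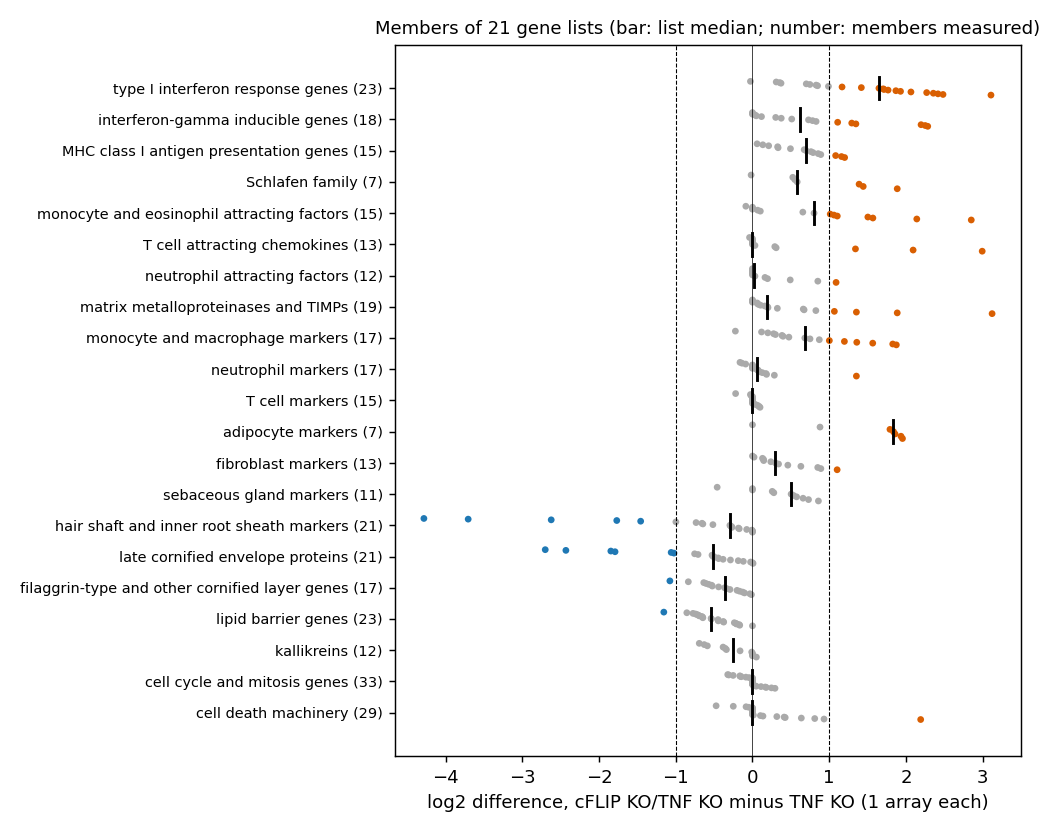
Difference in log2 signal between cFLIP KO/TNF KO and TNF KO (x axis) for each member of 21 gene lists (rows, with the number of members measured), 1 array per genotype. Orange and blue points are at least 2-fold higher and lower, bars mark the list medians, which run from 1.84 for adipocyte markers to -0.54 for lipid barrier genes, and dashed lines mark 2-fold.

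Genes of the inner root sheath of the hair follicle and of the cornified envelope were among those with the lowest differences. Of 21 hair shaft and inner root sheath markers, 18 were below 0, 3 were listed at equal values and 5 were at least 2-fold lower, with a median of -0.29 and a summed linear signal 0.31 times that of TNF KO. The 5 were all inner root sheath genes. Krt71 was 9.25 in TNF KO against 4.97 in cFLIP KO/TNF KO and 5.95 in cFLIP KO. Tchh, the gene of trichohyalin, was 8.73 in TNF KO against 5.03 in cFLIP KO/TNF KO and 6.69 in cFLIP KO. Krt27 was 7.73, 5.11 and 6.06 in the same order, Krt25 was 7.58, 5.81 and 6.19, and Krt73 was 6.54, 5.08 and 5.86. All 5 had lower signals on both arrays with Cre than in TNF KO. Outside the list, the hair shaft gene Krtap8-1, of a keratin-associated protein, was 5.44 in TNF KO, 4.10 in the double-deficient epidermis and 5.33 in cFLIP KO. The hair shaft keratin genes of the list were closer to 0 than the inner root sheath genes named above, with Krt33a at -0.998 just short of 2-fold, Krt35 at -0.65, Krt31 at -0.18 and Krt81 listed at 5.27 on both arrays. The skin was epilated before treatment, and the sources used here do not give the hair cycle stage of each pool. Its part in these values was not tested. Of 7 melanocyte markers none was past 2-fold, and Pmel was at -0.43.

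**Figure D5:**
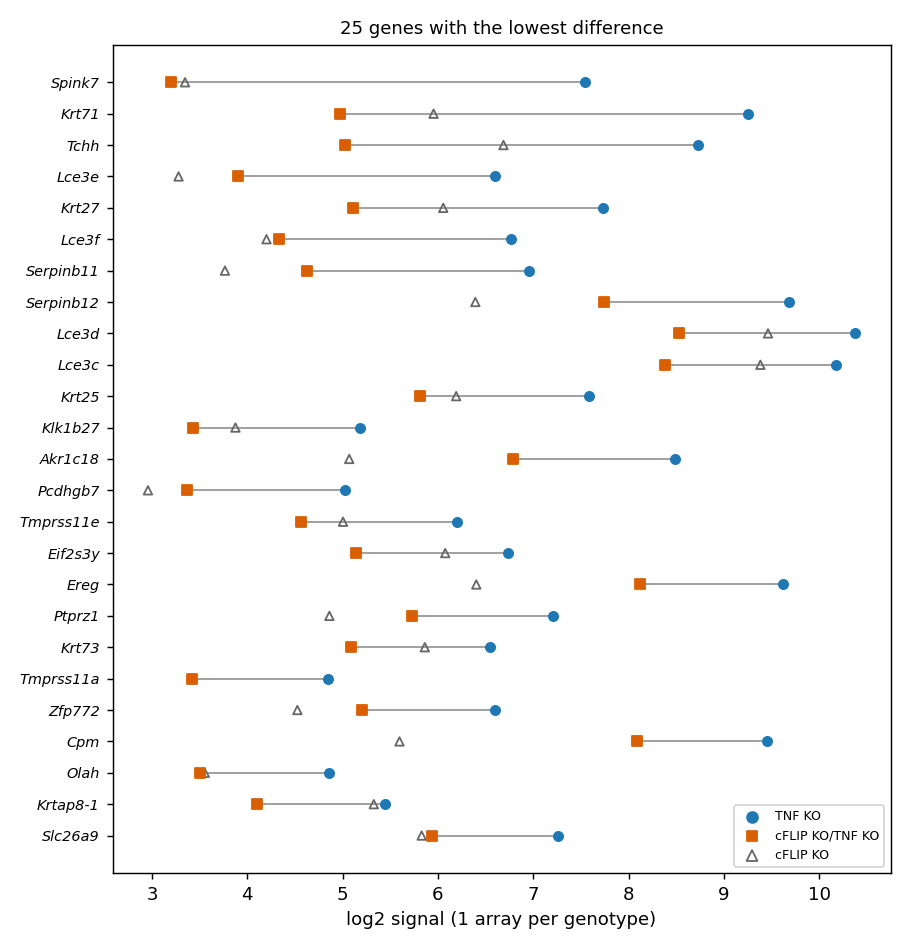
Log2 signal (x axis) of the 25 genes with the lowest difference in TNF KO (circles), cFLIP KO/TNF KO (squares) and cFLIP KO epidermis (triangles), 1 array per genotype. Krt71 and Tchh start at 9.25 and 8.73 in TNF KO and end at 4.97 and 5.03 in cFLIP KO/TNF KO.

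The late cornified envelope genes, which encode small proteins of the outermost layers, were lower in cFLIP KO/TNF KO, with 19 of 21 below 0, 6 at least 2-fold lower and a median of -0.51. Of these 6, 4 were neighbouring genes of the Lce3 group. Lce3e was 6.60 in TNF KO against 3.90 in cFLIP KO/TNF KO, Lce3f was 6.77 and 4.34, Lce3d was 10.38 and 8.53, and Lce3c was 10.17 and 8.38. Lce3d and Lce3c were higher in cFLIP KO (9.46 and 9.38) than in cFLIP KO/TNF KO, whereas Lce3e (3.28) and Lce3f (4.20) were lower there. Lce1e (-1.06) and Lce1k (-1.02) were the other genes past 2-fold, and the brightest members, Lce1c (-0.29) and Lce1j (-0.52), were not.
All 17 filaggrin-type and other cornified layer genes were below 0, with a median of -0.36. Past 2-fold was Rptn, the gene of repetin (11.56 in TNF KO against 10.48 in cFLIP KO/TNF KO), followed by Casp14 (-0.84), Cnfn (-0.63) and Cdsn (-0.61), and Flg was at -0.36. Of 23 lipid barrier genes, 22 were below 0 and Fa2h was listed at 6.84 on both arrays, with a median of -0.54. Past 2-fold was the lipase gene Lipn (8.20 in TNF KO against 7.05 in cFLIP KO/TNF KO), and Pnpla1 (-0.86), Cyp4f39 (-0.78), Alox12b (-0.74) and Cers3 (-0.72), which make or process the acylceramides, were short of it. Under scaling by Actb, 7 cornified layer, 12 lipid barrier and 12 late envelope genes in all were past 2-fold on the lower side, in place of 1, 1 and 6. In cFLIP KO the medians were -2.18 for the cornified layer list, -2.05 for the lipid barrier list and -1.60 for the late envelope list.
Spink7, of the family of Kazal-type inhibitors of serine proteases, had the lowest difference of all, with 7.55 in TNF KO against 3.20 in cFLIP KO/TNF KO and 3.35 in cFLIP KO. The serpin genes Serpinb11 (6.95 in TNF KO against 4.63 in cFLIP KO/TNF KO) and Serpinb12 (9.69 and 7.74) were lower too. Of 19 epidermal protease inhibitors, Spink7 and Serpinb12 were the 2 past 2-fold, the list median was -0.02 and Serpinb2 was listed at 11.34 on both arrays. The transmembrane serine protease genes Tmprss11e (-1.64) and Tmprss11a (-1.42) were among the 25 lowest, as were Klk1b27 (-1.75), Akr1c18 (-1.70), an enzyme that inactivates progesterone, and Ptprz1 (-1.47), a receptor phosphatase. None of 12 kallikreins of the Klk4 to Klk15 series was past 2-fold, and Klk8 was at -0.59. Of 13 desmosome genes, Dsc2 (-1.16) was past 2-fold, and of 13 small proline-rich protein genes, whose near-identical copies can share probes, Sprr2a3 was higher (1.09) and Sprr2h lower (-1.19).

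Several lists with a role in skin inflammation or growth had no member past 2-fold. With 0.854% of all genes past it, lists of this size can have none without differing from other genes. The 33 cell cycle and mitosis genes ran from -0.32 to 0.29 with a median of 0. The stress keratin genes were listed equal or near it, with Krt6a at 12.89 and Krt16 at 12.35 on both arrays and Krt6b at 13.08 and 13.06, and Krt17 was higher by 0.79. Of 23 transcription factor genes of keratinocyte differentiation, 14 were below 0 with a median of -0.11, Klf4 at -0.83 and Grhl3 at -0.74 being the lowest. The feedback genes of NF-kB, the STAT3 and SOCS genes, the heat shock chaperones and the genes of type 2 immunity had medians between 0 and 0.01 as deposited and of -0.51 to -0.52 under scaling by Actb, and the genes of cholesterol and fatty acid synthesis had one of -0.17. Among 17 eicosanoid genes, Alox8 was higher (5.38 in TNF KO against 6.64 in cFLIP KO/TNF KO) and Hpgd, which degrades prostaglandins, lower (8.56 and 7.27). Tgm2, a transglutaminase of many tissues, was higher (5.58 and 7.20). The other 5 of 6 transglutaminase and envelope scaffold genes were below 0, among them Tgm3 (-0.74) and Tgm5 (-0.53), and the list median was -0.22. Of 14 wound edge genes Tnc, the gene of tenascin-C, was higher (8.73 and 9.91), in a list whose median of 0.15 turned to -0.38 under scaling by Actb.

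Part of the genes past 2-fold lay near each other in the genome. Of the 151 higher genes, 49 (32.5%) had another higher gene within 5 genes, in 19 runs. Of the 54 lower genes, 17 (31.5%) had another lower gene as near, in 7 runs. No share was worked out for other gene sets of these sizes, so these shares cannot be called particular to the genes past 2-fold. The longest run of higher genes held Ifi209, Ifi207, Ifi204, Ifi211 and Ifi205 on chromosome 1. The Ms4a genes Ms4a4a, Ms4a4c, Ms4a6b and Ms4a6d lay close together on chromosome 19, the chemokine genes Ccl2, Ccl7 and Ccl8 and the genes Ccl9, Ccl6 and Ccl4 on chromosome 11, and Mmp13, Mmp12 and Mmp3 on chromosome 9. The longest run of lower genes was that of Lce3c to Lce3f on chromosome 3, and Krt25 lay beside Krt27 on chromosome 11 and Krt71 near Krt73 on chromosome 15. Members of such families can be near-identical, and the sources used here do not say how their probes were told apart.

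The interferon-stimulated element core seen in the Ifit1 and Isg15 windows was searched in the promoters of all measured genes. It was present in 33 of 122 promoters of higher genes (27.0%), in 11 of 20 of the type I interferon response list (55%), in none of 47 of lower genes and in 3.35% of 21985 promoters of all measured genes. This motif was chosen after the differences were seen. TGANTCA was present in 19.7% of promoters of higher genes, 21.3% of lower genes and 7.25% of all, TTCNNNGAA in 12.3%, 6.38% and 7.92%, and GGANTTTCC in 4.10%, 4.26% and 1.35%. Promoters were matched for 18073 genes, of which 108 were higher and 45 lower. No test was run on these shares, and a match says only that the letters are present in the window.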

How the data were processed

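Epidermal RNA pools of 3 genotypes were hybridised by the authors to Affymetrix Mouse Gene 2.0 ST arrays, 1 per genotype, and probes were summarised per ENTREZ gene with version 22 of a custom chip definition. The deposited values are log2 signals after robust multiarray background correction and quantile normalization, and the submitters' processing notes name RMA without a version. The log base is not named in the sources used here and was taken from the range of values. Of 24973 values per array, 958 had no gene symbol in the platform annotation, and 4 symbols held by more than 1 probe set were averaged. The RefSeq gene table gave names and order for 23920 of the 24011 genes, and RefSeq promoters were matched for 18073.

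For each gene the log2 value of TNF KO was subtracted from that of cFLIP KO/TNF KO, and genes past 2-fold were counted. No filter on dim genes was used; dim means below the median signal on both arrays. The members and the 67 gene lists were chosen with earlier results of these data known. Open to naming were the 25 highest and 25 lowest genes that reached the median signal on either array, leaving out predicted genes, small RNAs, receptor segments and olfactory receptors; in each list the members past 2-fold and the 4 furthest from 0; genes the study's text names; and genes used as checks. Other list members and genes were named after their values were seen. The analysis of variance of the methods needs replicates and was not run, so there is no p-value. The number of arrays limits the precision. Alternatives were folds of 1.5 and 3, 5 scalings (Actb; 6 reference genes, since 4 of the 10 chosen were not used here; a lowess trend with a share of 0.3 and 3 iterations; repeated quantile normalization; centring on unequal genes), no dim genes, and coding genes only. Steps were tested on simulated data. Software was matplotlib 3.10.9, statsmodels 0.14.6, numpy 2.4.6 and pandas 2.3.3 under Python 3.11.15.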

Additional observations from a re-analysis of the deposited data

Results flagged for a closer look

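Among the 958 values without a gene symbol, which the comparison left out, the cFLIP KO/TNF KO array exceeded TNF KO by at least 2-fold at 7 and fell short of it by as much at 1. They drew notice as a signal in data that no comparison used. Their differences ran from -1.40 to 2.01, and 429 of the 958 were listed at equal values on both arrays.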

How the results depend on the processing

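No paired analysis was possible because each genotype had 1 array, and for the same reason no array could be left out. With the threshold at 1.5-fold, 355 genes were higher and 250 lower, and at 3-fold 55 and 18, in place of 151 and 54. Scaling by Actb gave 61 higher and 440 lower genes. It shifts every difference by -0.52, and so also every list median that was 0 as deposited. The same scaling turned 17 list medians from above 0 to below 0, 8 of them from under 0.1. The other 9 were the medians of matrix metalloproteinases (-0.33), wound edge genes (-0.38), MHC class II genes (-0.30), alternative macrophage activation (-0.14), complement (-0.093), the Skint family (-0.38), fibroblasts (-0.22), skeletal muscle (-0.35) and sebaceous gland (-0.020). The other 4 scalings gave 154 to 157 higher and 51 to 53 lower genes, moved the median of all genes by at most 0.015 and turned no list median of 0.1 or more from 0, though stefins (-0.05) stood at 0.02 after repeated quantile normalization, and keratinocyte markers (-0.05) at 0.01 there and 0.04 after the lowess trend. Without dim genes the counts were 149 and 51, and among coding genes 139 and 50. The SD of the difference, 0.22 over all genes, was 0.32 over genes with unequal values and 0.30 without dim genes. The mean in place of the median moved 30 of 67 lists and leaving out dim genes 13, and neither turned the sign of any.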
